A study of Mus musculus with 4 samples.

Results

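The red cell membrane skeleton is described here through 8 genes taken by name from a list: Sptb, Ank1, Epb41, Epb42, Slc4a1, Dmtn, Add2 and Tmod1, of the 31053 genes in the count matrix. All 8 were found by symbol, and their levels were followed over the haemoglobin share of erythroid cells and across the other cell classes defined by marker genes. The study used droplet RNA sequencing of bone cells from 8-week-old mice, taken from both ends of the tibia (proximal and distal) with a digest of dispase, collagenase and trypsin. The mice carried the Cre transgene Col10a1Cre and the reporter Rosa26-Tdtomato, were heterozygous at both Irx3 (+/Δ) and Irx5 (+/-), served as the study's Irx3/5 heterozygous controls and had no PTH, as their titles state. The 4 sample records carry these same labels, so there is 1 group, and no wild-type mice enter the comparisons. The barcodes of the matrix carry 1 suffix and cannot be divided by record, so all values come from 1 library with no replicates. Intervals in parentheses are at 95% and reflect the counting of UMIs alone, and differences are described by their size, with no test of animals or conditions.

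The membrane skeleton is a flexible net under the red cell membrane, made of spectrin tetramers that meet at short actin filaments. Ankyrin ties the net to band 3, the anion exchanger that spans the membrane, and a second set of proteins joins spectrin to actin and holds the filaments at a fixed length. Inherited loss of several of these proteins gives spherocytic or elliptocytic red cells and haemolytic anaemia, and in bone marrow the net is assembled while erythroblasts fill with haemoglobin and lose most other RNA.

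The deposited matrix held 15014 barcodes and 90273806 UMIs (unique molecular identifiers, 1 per captured RNA molecule), with a median of 3812 UMIs per barcode. After removal of barcodes with under 500 UMIs or 200 genes, with over 10% mitochondrial UMIs, or called as doublets, 10485 cells remained. They formed 30 clusters, built without the 8 genes. Markers of the red cell lineage were raised in 5 clusters with 1783 cells (17.0%), called erythroid-like, whose median haemoglobin share was 69.8% of UMIs. Alas2, Klf1 and Gata1 are among the markers that named these clusters, so their higher levels here were partly set by the naming. Alas2, which starts haem synthesis, stood at 3520 counts per 1000000 UMIs outside the globin genes (CPM) against 18.9 in the other named classes, and the erythroid transcription factors Klf1 and Gata1 stood at 319.6 against 1.37 and at 156 against 0.694. Another 8141 cells fell into 9 named classes, and 561 cells in 6 clusters stayed unnamed.

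Haemoglobin share means the UMIs of the 4 adult globin genes (Hba-a1, Hba-a2, Hbb-bs and Hbb-bt) as a percentage of a cell's UMIs. Erythroid-like cells were divided into a low range under 20% (353 cells), a middle range from 20% to 75% (632 cells) and a high range over 75% (798 cells). Within 5 percentage points of the lower bound lay 53 cells, and 179 lay within 5 points of the upper. The median number of non-globin UMIs per cell was 1838, 2887 and 714.5 in the low, middle and high ranges. Unless another scale is named, a level is in CPM of non-globin UMIs, as above, and a gene was called higher or lower at a 2-fold difference with at least 20 UMIs over both sides. The assay tags transcript ends and counts by gene, so isoforms of one gene are not separated, and the levels of different genes are not ranked against each other.

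In GRCm38 coordinates the 8 protein-coding genes lie on 7 chromosomes. Sptb (chr12:76580488-76710547), Epb41 (chr4:131923413-132075321), Epb42 (chr2:121017891-121037072), Slc4a1 (chr11:102348824-102366203) and Dmtn (chr14:70601263-70636048) are on the minus strand. Ank1 (chr8:22974844-23150497), Add2 (chr6:86028681-86124409) and Tmod1 (chr4:46038935-46116032) are on the plus strand. No member overlaps another counted gene on its own strand. On the opposite strand Sptb overlaps Plekhg3, Ank1 overlaps Gm15816, Epb41 overlaps Gm13063 and Gm10300, Add2 overlaps Gm44089, and Tmod1 overlaps Tstd2. The sources used here do not say whether the counting used strand.

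The RefSeq promoter table for GRCm38.p6, with 250 bases before to 50 bases after each start, held 7 windows for 5 of the 8 genes: 3 for Epb41 and 1 each for Sptb, Epb42, Add2 and Tmod1. Ank1, Slc4a1 and Dmtn had no entry. Each window was searched on both strands for the erythroid GATA letters (AGATAA, its variant AGATAG, and likewise TGATAA and its variant TGATAG) and for the CACCC-type letters CCNCNCCC that KLF factors bind. A GATA match was present in 5 of the 7 windows, against 29.8% of all 32851 windows in the table, and a CACCC-type match in 5 of the 7, against 49.5%. No GATA match overlapped a CACCC-type match. The windows of Sptb, Epb42 and Add2 and the second Epb41 window are shown because each holds a GATA match. In CPM of non-globin UMIs these genes had their highest values in different haemoglobin ranges. The peaks of Epb42 and Add2 were within counting error of their next-highest range, at ratios of 1.05 (0.944 to 1.17) and 1.01 (0.863 to 1.18). Per cell, Sptb and Add2 both peaked at 20 to 40% haemoglobin. The printed windows run 5′ to 3′ on the gene's strand, with matches to either motif in capitals.
Sptb, chr12:76710498-76710797, minus strand: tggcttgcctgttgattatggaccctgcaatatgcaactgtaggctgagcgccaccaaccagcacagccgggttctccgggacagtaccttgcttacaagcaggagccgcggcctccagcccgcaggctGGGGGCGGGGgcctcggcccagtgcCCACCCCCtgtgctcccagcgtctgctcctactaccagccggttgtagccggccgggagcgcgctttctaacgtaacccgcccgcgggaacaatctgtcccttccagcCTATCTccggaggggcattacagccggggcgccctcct
Epb41 second start, chr4:132072048-132072347, minus strand: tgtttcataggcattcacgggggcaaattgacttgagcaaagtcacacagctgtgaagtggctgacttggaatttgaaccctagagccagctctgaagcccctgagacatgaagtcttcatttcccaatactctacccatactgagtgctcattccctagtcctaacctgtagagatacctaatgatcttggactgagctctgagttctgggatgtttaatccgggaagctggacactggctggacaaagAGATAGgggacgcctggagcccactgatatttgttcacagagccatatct
Epb42, chr2:121036828-121037127, minus strand: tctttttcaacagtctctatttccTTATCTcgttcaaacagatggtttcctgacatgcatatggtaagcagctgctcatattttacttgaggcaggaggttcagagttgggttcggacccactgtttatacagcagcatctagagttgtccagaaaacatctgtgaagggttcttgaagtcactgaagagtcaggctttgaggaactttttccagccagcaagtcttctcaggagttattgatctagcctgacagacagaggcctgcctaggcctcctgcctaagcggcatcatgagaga
Add2, chr6:86028431-86028730, plus strand: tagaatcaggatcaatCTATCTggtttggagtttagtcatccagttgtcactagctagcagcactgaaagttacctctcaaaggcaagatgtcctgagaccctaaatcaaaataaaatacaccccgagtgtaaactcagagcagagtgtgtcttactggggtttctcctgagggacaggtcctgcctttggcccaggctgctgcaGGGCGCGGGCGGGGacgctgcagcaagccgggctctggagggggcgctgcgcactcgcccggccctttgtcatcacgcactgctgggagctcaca
The first base of the GATA match is base 263 of the Sptb window, base 251 of this Epb41 window, base 25 of the Epb42 window and base 17 of the Add2 window. The Sptb window also held 3 CACCC-type matches and the Add2 window 2, while the printed Epb41 and Epb42 windows held none. The first Epb41 window, not printed here, held 1 GATA match and 3 CACCC-type matches. The third Epb41 window, also not printed, held 6 CACCC-type matches and no GATA match. These matches are letters in the reference and were not tested as binding sites.

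All 8 genes were at least 2-fold higher in erythroid-like cells than in the other named classes together, where 13.4% of the 13385 genes compared were higher to that degree. The median log2 ratio of the 8 was 8.25, and that of all genes compared was -0.49. Slc4a1 stood at 5617 CPM (5554 to 5681) against 18.0 (16.9 to 19.1), a ratio of 313 (293 to 333). Dmtn had the largest ratio of the 8, at 431 (333 to 568), from 465 against 1.08 CPM. Epb42 stood at 718 against 1.88 (ratio 382, 314 to 469) and Sptb at 652 against 2.03 (ratio 322, 266 to 392). For Add2, Ank1 and Tmod1 the ratios were 297 (228 to 395), 285 (232 to 353) and 136 (114 to 163). Epb41 had the smallest ratio, 32.2 (31.0 to 33.4), and its level outside the erythroid-like cells was 65.5 CPM (63.4 to 67.7) against 2110 within them. With a limit of 5% mitochondrial UMIs all 8 were still called higher, at log2 ratios from 4.48 for Epb41 to 7.27 for Dmtn, with Epb42 at 6.34 in place of 8.57, Slc4a1 at 6.35 in place of 8.29 and Sptb at 6.66 in place of 8.32. Of the genes compared, 10 had a larger ratio than Dmtn and 230 a larger ratio than Epb41.

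The levels over 8 ranges of haemoglobin share are plotted for each gene. From the low to the middle range all 8 genes were called higher, against 14.6% of the 8544 genes compared, of which 36.3% were lower. From the middle to the high range Epb41 alone of the 8 was called higher (5.63% of 6500 genes were), Ank1 and Dmtn were called lower (61.5% were), and the other 5 stayed within 2-fold. Both comparisons use the cells of the middle range.

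**Figure D1:**
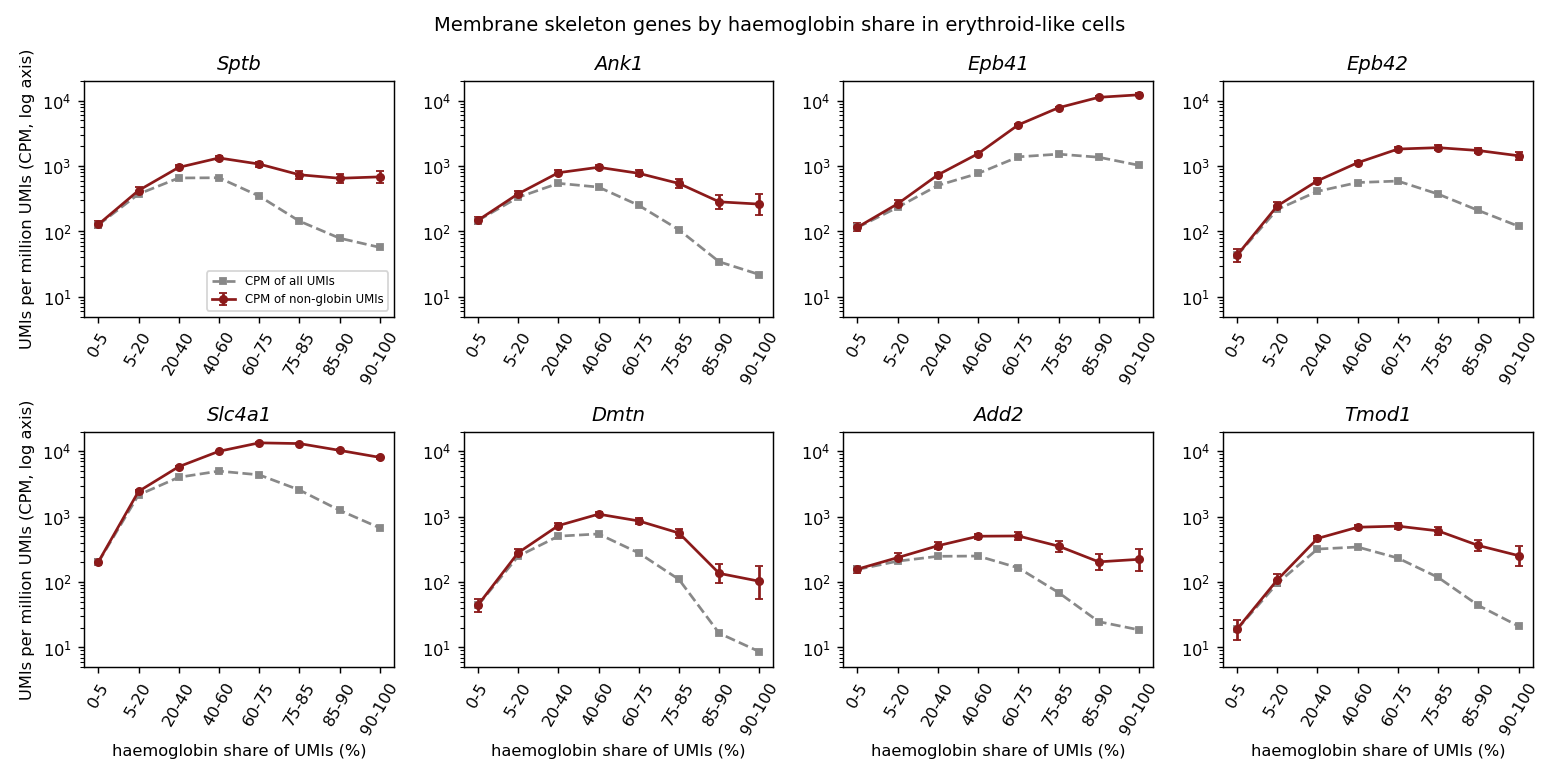
Level of each gene in 8 ranges of haemoglobin share in erythroid-like cells, on a log axis shared by all panels. Red points and the solid line give CPM of non-globin UMIs with 95% Poisson intervals, and grey squares and the dashed line give CPM of all UMIs without intervals; Epb41 is highest in the last range at 12315 CPM, while Dmtn falls there to 103.

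Spectrin forms the net itself. Sptb encodes the red cell beta-spectrin chain, and its level rose over the successive ranges from 128 (under 5% haemoglobin) through 423 (5 to 20%) and 955 (20 to 40%) to 1332 (40 to 60%). It then stood at 1074 (60 to 75%), 737 (75 to 85%), 651 (85 to 90%) and 684 (90 to 100%). In order of level, the successive values of the last 3 ranges were within counting error of each other. Between the low and middle ranges Sptb was 5.34-fold higher (4.86 to 5.88), and in the high range it was 0.609 times the middle range (0.551 to 0.672).

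Ankyrin, protein 4.2 and band 3 make up the anchor between net and membrane. Ank1, which encodes the erythroid ankyrin, stood at 148 CPM under 5% haemoglobin, 376 at 5 to 20%, 791 at 20 to 40%, 959 at 40 to 60%, 775 at 60 to 75%, 542 at 75 to 85%, 284 at 85 to 90% and 262 over 90%. The 20 to 40% and 60 to 75% ranges did not differ beyond counting error, and neither did the last pair. Ank1 was 4.00-fold higher (3.63 to 4.41) in the middle than in the low range and 0.456 times (0.400 to 0.519) the middle level in the high range. This last call was lost with doublets kept, with a stricter mitochondrial limit, with clusters named on all UMIs and with every kept cell of at least 20% haemoglobin, at log2 ratios of -0.96, -0.80, -0.86 and -0.53.

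Slc4a1 encodes band 3, which exchanges chloride for bicarbonate and holds ankyrin. Under 5% haemoglobin it stood at 203 CPM, and in the next range at 2440. It went on through 5822 and 10024 to 13492 at 60 to 75% and 13153 at 75 to 85%, values that did not differ beyond counting error, and then to 10350 and 8086. Slc4a1 was 11.0-fold higher (10.5 to 11.5) in the middle than in the low range and 1.19-fold (1.16 to 1.22) in the high over the middle range.

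Epb42 encodes protein 4.2, a transglutaminase-like protein without enzyme activity that binds band 3 and ankyrin. Its level ran from 43.3 under 5% through 246, 596, 1127 and 1822 to 1914 CPM at 75 to 85%, and was 1730 and 1439 in the last ranges. In order of level, the successive values of the 3 ranges between 60% and 90% were within counting error of each other. It was 10.8-fold higher (9.47 to 12.3) in the middle than in the low range and 1.60-fold (1.49 to 1.71) in the high over the middle range. Epb42 and Slc4a1 had a UMI ratio (Epb42 per Slc4a1) of 0.213 (0.165 to 0.273) under 5% haemoglobin, 0.101 (0.0858 to 0.117) at 5 to 20% and 0.178 (0.151 to 0.209) over 90%. A ratio between genes depends on how well each is captured, so its change across ranges is what can be read, not its size. Ank1 UMIs per Slc4a1 UMI were 0.731 (0.622 to 0.859) under 5%, 0.154 (0.135 to 0.175) at 5 to 20% and, over 90%, 0.0324 (0.0222 to 0.0459).

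The junction genes join spectrin to actin. Epb41 encodes protein 4.1R, which strengthens the contact of spectrin with actin and binds glycophorin C. Its level went up at every step, at 116, 265, 734, 1549, 4274, 7810, 11270 and 12315 CPM across the 8 ranges, each step beyond counting error. The last range was 106 times the first. Levels come from summed UMIs, so deep cells weigh more. The 90 cells with the least haemoglobin held 987505 of the 1778830 non-globin UMIs of the first range. Epb41 stood at 90.1 CPM in them and at 140.2 in the next 90 cells, and Slc4a1 at 8.10 and 95.1. Epb41 was 11.8-fold higher (10.7 to 13.2) in the middle than in the low range and a further 5.28-fold higher (5.08 to 5.49) in the high range, where 30 of the 6500 genes compared had a larger ratio. Epb41 UMIs per Slc4a1 UMI were 0.573 (0.481 to 0.682) under 5% haemoglobin, and went from 0.109 (0.0931 to 0.126) at 5 to 20% haemoglobin to 1.52 (1.41 to 1.65) over 90%.

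Dmtn encodes dematin, which bundles actin filaments. It stood at 44.4 CPM under 5%, 281 at 5 to 20%, 731 at 20 to 40%, 1095 at 40 to 60%, 862 at 60 to 75%, 563 at 75 to 85%, 136 at 85 to 90% and 103 over 90%. The drop from the peak to the last range was 10.6-fold, and the last value, within counting error of the one before it, rests on 13 UMIs in 200 cells. Dmtn was 8.07-fold higher (7.12 to 9.16) in the middle than in the low range and 0.343 times the middle range (0.296 to 0.395) in the high range. With every kept cell of at least 20% haemoglobin, whatever its class, the log2 ratio of the late step was -0.93, short of 2-fold.

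Add2 encodes beta-adducin, which caps the fast-growing end of actin filaments and recruits spectrin to it. Per non-globin UMI its level varied least with haemoglobin, at 158, 237, 359.9, 503, 508, 355, 204 and 223 CPM across the 8 ranges. The peak was 3.22 times the first range, and the last pair did not differ from each other or from their nearest neighbours in level beyond counting error. It was 2.51-fold higher (2.24 to 2.81) in the middle than in the low range and 0.600 times (0.510 to 0.702) in the high range. The early call of Add2 was lost with a limit of 5% mitochondrial UMIs, at a log2 ratio of 0.83, and with every kept cell, at 0.68. Per cell Add2 did not vary least: its peak was 15.8 times its lowest value, against 13.6 times for Sptb and 11.9 times for Epb41.

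Tmod1 encodes tropomodulin 1, which caps the slow-growing end. It stood lowest of its 8 values under 5% haemoglobin, at 19.1 CPM from 34 UMIs, then at 108, 465, 691, 718, 607, 363 and 254. In order of level, the successive values at 60 to 75%, 40 to 60% and 75 to 85% were within counting error of each other, as was the last pair. Tmod1 was 13.7-fold higher (11.3 to 16.8) in the middle than in the low range and 0.725 times (0.639 to 0.822) in the high range. With every kept cell of at least 20% haemoglobin, whatever its class, the log2 ratio of the late step was 0.13 in place of -0.46, so its direction turned. That setting took the middle range from 632 to 880 cells with cells outside the erythroid-like clusters. Unnamed clusters that held globin genes with B lineage or with neutrophil markers had Tmod1 at 35.6 and 24.5 CPM. Tmod3, a relative of Tmod1 that caps filaments in many cell types, was at 38.7, 25.5 and 11.7 CPM in the low, middle and high ranges, against 104 in the other named classes.

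Counts per cell gave another order of ranges, and the median number of non-globin UMIs per cell was lowest in the high range. The mean number of Slc4a1 UMIs per cell was 1.43 under 5% haemoglobin, reached 36.7 at 40 to 60% and was 5.08 over 90%. Sptb, Ank1, Dmtn, Add2 and Tmod1 peaked per cell at 20 to 40%, with means of 5.86, 4.85, 4.48, 2.21 and 2.85 UMIs, and had 0.430, 0.165, 0.0650, 0.140 and 0.160 UMIs over 90%. Epb42 peaked at 4.13 UMIs at 40 to 60% and had 0.905 over 90%. Epb41 reached 9.78 UMIs at 75 to 85% and kept 7.75 over 90%, a peak only 1.26 times its last value, where the peak of Dmtn was 69.0 times its last value.

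**Figure D2:**
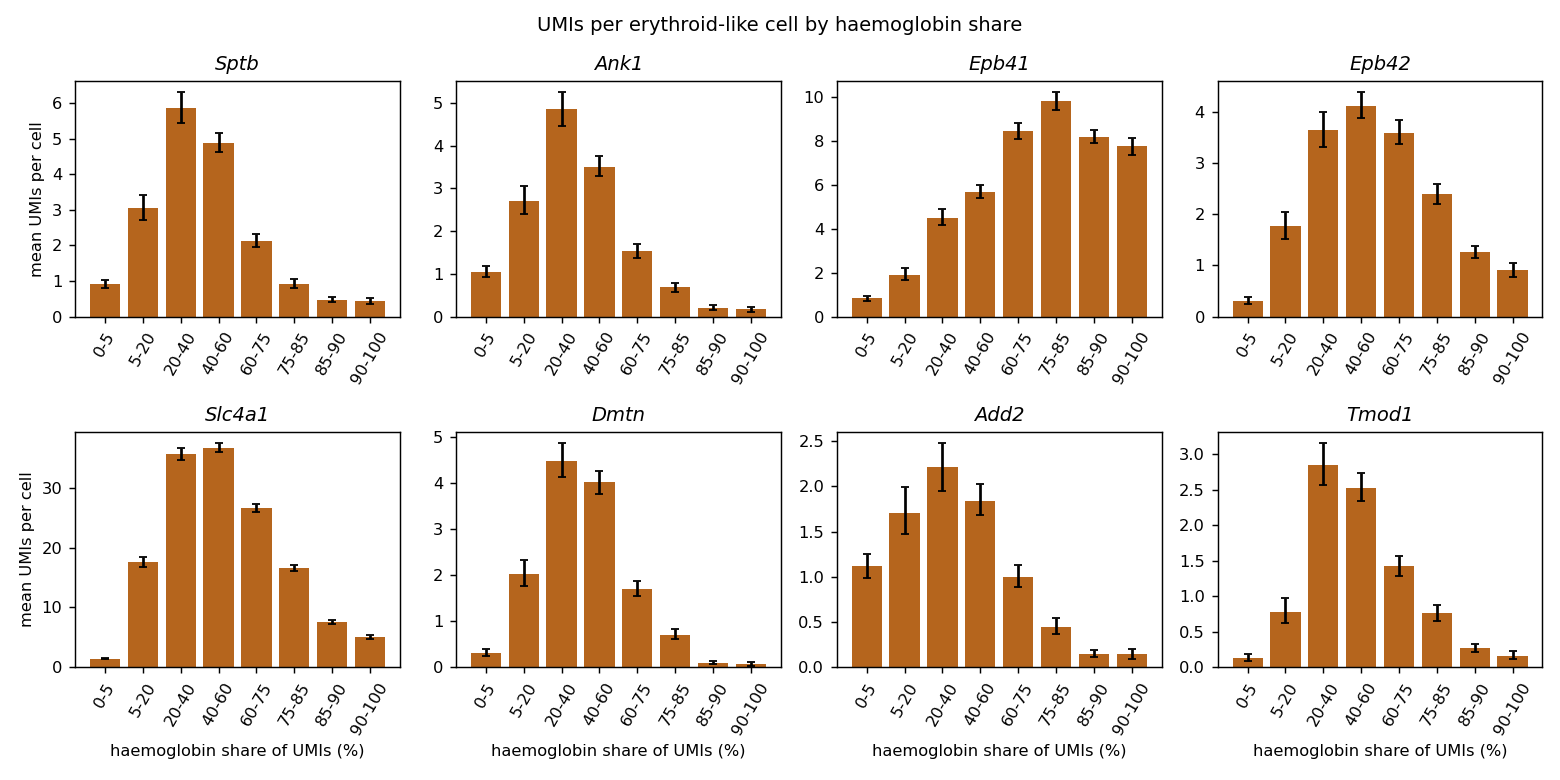
Mean number of UMIs per erythroid-like cell for each gene in 8 ranges of haemoglobin share, with 95% Poisson intervals; each panel has its own linear axis from 0. Sptb, Ank1, Dmtn, Add2 and Tmod1 are highest at 20 to 40% haemoglobin, and Epb41 is highest at 75 to 85% with 9.78 UMIs per cell.

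In single cells the spread was wide. The number of Slc4a1 UMIs in a middle-range cell ran from 0 to 121 with a median of 31, and in a high-range cell from 0 to 50 with a median of 7. For Epb41 the median was 5.5 UMIs in the middle range and 8 in the high range, with highest values of 25 and 28. The medians of Sptb, Ank1, Dmtn, Add2 and Tmod1 in the high range were 0. A UMI of any of the 8 genes was present in 257 of 353 low-range cells, in all 632 middle-range cells and in 794 of 798 high-range cells. It was also present in 35.6% of the cells of the other named classes, and in 60.5% of T or NK-like cells. An Epb41 UMI was present in 28.6% and 56.2% of these cells, and a Slc4a1 UMI in 7.06% and 5.88%. Each remaining gene was seen in at most 1.49% of either set. In the low, middle and high ranges all 8 genes together were seen in 32, 262 and 8 cells.

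Depth differs between the ranges, so each cell was also thinned at random to 1000 UMIs, which left out 114 low-range and 9 middle-range cells and no high-range cell. Slc4a1 then had a UMI in 31.8% of low-range cells (25.9 to 38.1%), 97.3% of middle-range cells (95.7 to 98.4%) and 65.5% of high-range cells (62.1 to 68.8%). Without thinning these shares were 36.5%, 99.1% and 94.6%. Epb41 had a UMI in 57.6% of thinned middle-range cells (53.6 to 61.5%) and 74.2% of thinned high-range cells (71.0 to 77.2%), and the interval for low-range cells ran from 8.99% to 17.9%. Unthinned, its shares in the low, middle and high ranges were 40.2%, 97.6% and 98.9%. Dmtn had one in 8.37%, 33.2% and 3.76% (unthinned 25.2%, 79.3% and 18.0%). In B lineage-like cells, with a median of 3129 UMIs, the thinned shares were 1.57% for Slc4a1 and 0.116% for Dmtn, which serve as the background. The share for Epb41 there was 5.99%. Epb41 had 15.3 UMIs per 1000 globin UMIs in these cells and 1.63 in erythroid-like cells, where this ratio changed with haemoglobin share. How much of the 5.99% came from red cell RNA was not tested. Globin UMIs take part of the 1000, so a thinned share in the high range samples fewer other molecules than one in the low range.

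The choice of denominator decides how the late step reads. With all UMIs as denominator, 7 of the 8 genes were called lower in the high than in the middle range and none higher, where 93.5% of genes were lower and 0.108% higher. Per cell the count was again 7 of 8 lower and none higher, against 94.4% and 0.0769% of genes. On these scales Epb41 stood at 1.43 times (1.38 to 1.49) and 1.30 times (1.25 to 1.35) the middle range, Slc4a1 at 0.323 and 0.294 times, and Epb42 at 0.433 and 0.394 times, so the latter pair changed direction. The median log2 ratio of all genes was -1.39 in CPM of non-globin UMIs, -3.28 in CPM of all UMIs and -3.41 per cell, and those of the 8 genes were -0.59, -2.47 and -2.61. The median of the 8 genes lay above that of all genes on each scale. For the earlier step, from low to middle, 7 of 8 genes were called higher with all UMIs as denominator (5.50% of genes were) and 6 of 8 per cell (5.23%). Add2 fell short at 1.27 and 1.23 times, and Ank1 per cell at 1.95 times.

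**Figure D3:**
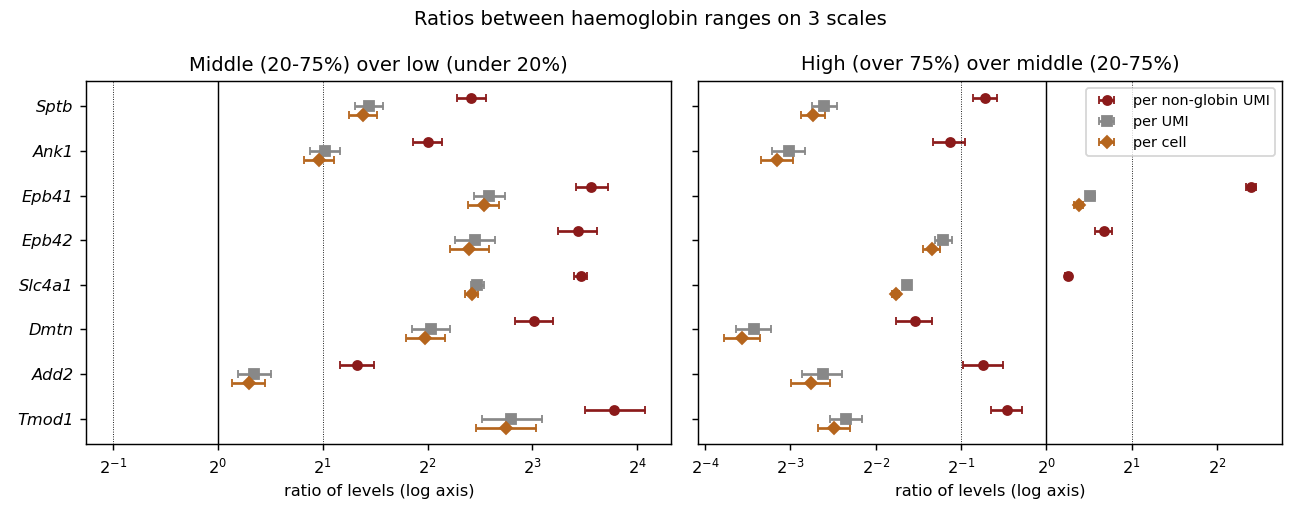
Ratio of levels between haemoglobin ranges for each gene on 3 scales, on log axes, with 95% intervals: per non-globin UMI (red circles), per UMI (grey squares) and per cell (orange diamonds); dotted lines mark 2-fold. All 8 genes lie right of 1 in the left panel, and in the right panel Epb41 alone lies right of 1 on all 3 scales, at 5.28, 1.43 and 1.30.

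Other values moved with the ranges. Markers of other cell types were present at low levels in erythroid-like cells. The 10 neutrophil markers summed to 3831, 2044 and 5733 CPM in the low, middle and high ranges, with Cxcr2 at 0 in the low range, against 358317 in neutrophil-like cells. The 10 B lineage markers, none of them at 0, summed to 667, 929.9 and 555, against 12997 in B lineage-like cells. The 8 megakaryocyte markers summed to 42.3, 47.4 and 67.3, with Gp1bb and Gp6 among those at 0 in every range, and each remaining list summed to at most 371. The median mitochondrial share was 4.11%, 1.92% and 0.898%. The part of these in the differences between ranges was not tested. Mki67, which marks cycling cells, stood at 1324, 5072 and 466 CPM in the 3 ranges. Klf1 stood at 266, 475 and 20.5 CPM there, Gata1 at 141, 217 and 14.6, and Alas2 at 170.3, 3429 and 16111.

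Outside the erythroid-like cells the 8 genes divided into Epb41 and the rest. Epb41 was seen in every named class: 236 CPM (212 to 263) in T or NK-like cells, 110.4 in osteoblast-like cells, 95.6 in monocyte or macrophage-like cells, 68.4 in basophil or mast-like cells, 59.7 in neutrophil-like cells, 58.1 in osteoclast-like cells, 56.5 in B lineage-like cells, 43.7 in granulocyte progenitor-like cells and 26.8 in plasma-like cells. After thinning, 23.5% of T or NK-like cells had an Epb41 UMI (18.8 to 28.7%), against 5.99% of B lineage-like cells (5.22 to 6.84%) and 6.66% of neutrophil-like cells (5.75 to 7.66%). Unthinned, these shares were 56.2%, 22.5% and 27.4%, at median depths of 4056.5, 3129 and 4402 UMIs per cell.

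Slc4a1 outside the erythroid-like cells ranged from 7.26 CPM in osteoclast-like cells to 74.1 in osteoblast-like cells. Some cells of these classes carried much haemoglobin RNA, and 125 of the 8141 had over 5% globin UMIs. Without them Slc4a1 stood at 10.6 (4.26 to 21.8) in osteoblast-like cells, at 12.1 in place of 41.5 in monocyte or macrophage-like cells, and at 11.1 in place of 18.0 over all 9 classes. The same step left Epb41 in T or NK-like cells at 222 (199 to 248) and took it from 110.4 to 45.4 in osteoblast-like cells. Sptb, Ank1, Epb42, Dmtn, Add2 and Tmod1 stood between 0.494 and 8.71 CPM wherever a class held a UMI, apart from Sptb at 26.1 (15.5 to 41.3) and Ank1 at 14.5 (6.96 to 26.7) in osteoblast-like cells. The 18 Sptb UMIs lay in 5 of 127 cells, 11 of them in 1 cell, and the 10 Ank1 UMIs in 4 cells, so the intervals do not cover the spread between cells. Their shares of thinned B lineage-like cells with a UMI ran from 0.116% to 0.436%. Free RNA and cells that carry erythroid RNA cannot be told apart from own expression at these levels.

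**Figure D4:**
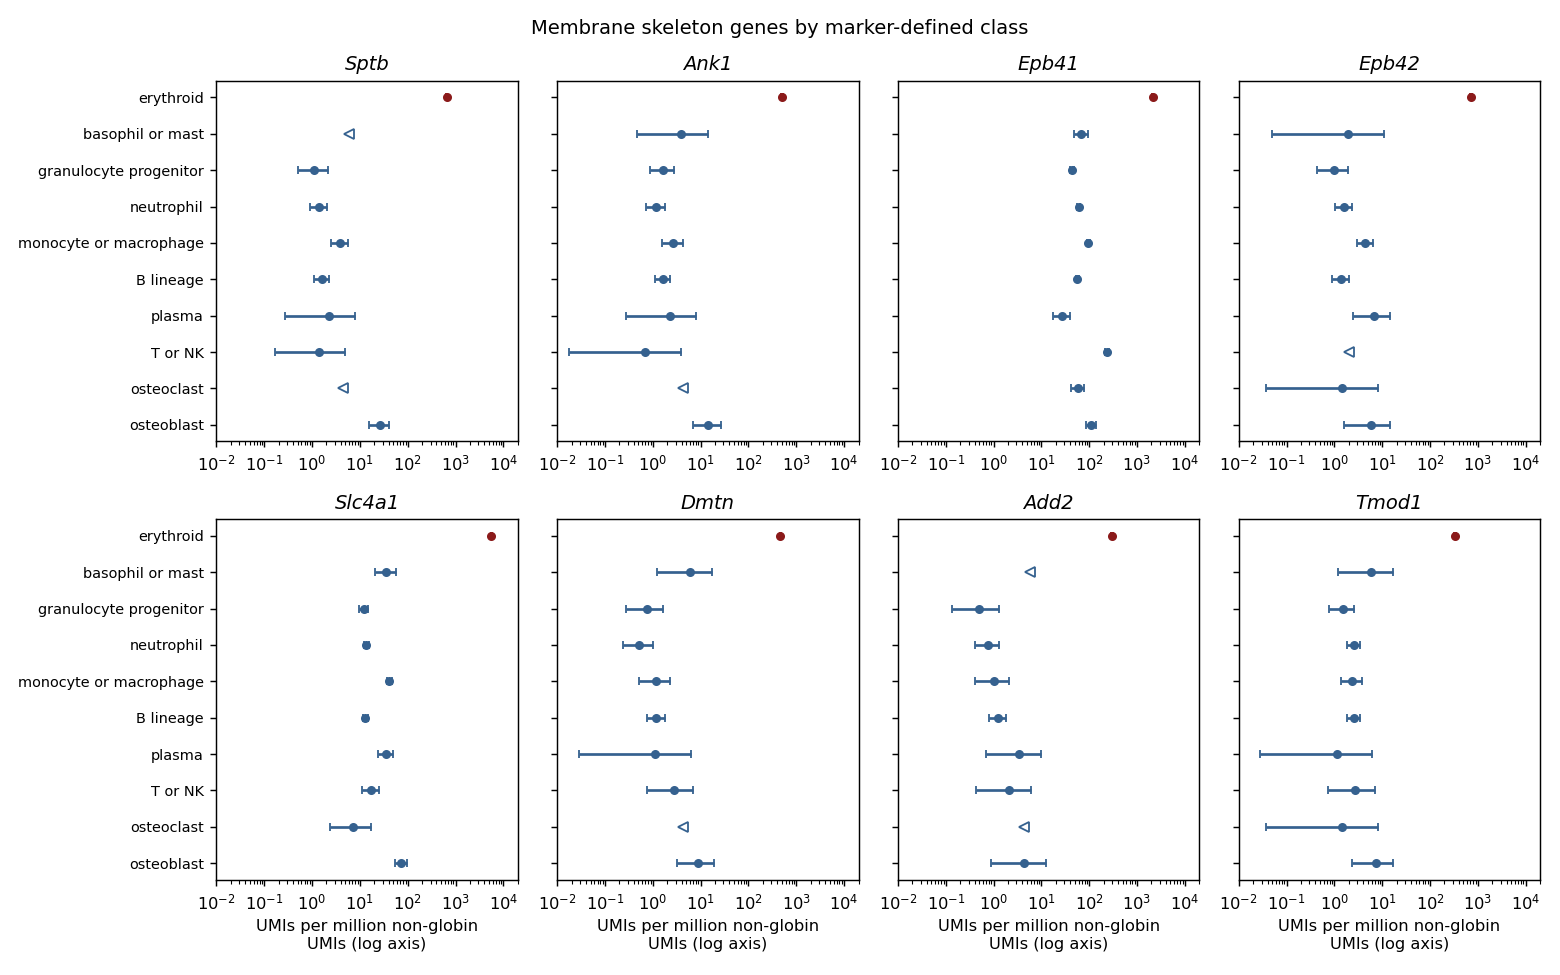
Level of each gene in erythroid-like cells (red) and the 9 other named classes (blue), in CPM of non-globin UMIs on a log axis, with 95% Poisson intervals; open triangles mark the limit that 3 UMIs set where a class held none. Epb41 stands at 236 in T or NK-like cells, and each of the other 7 genes is at 74.1 or below in every blue class.

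Some unnamed clusters also held the genes. One of 63 cells, with a median of 760 UMIs and erythroid markers leading, had Slc4a1 at 10226 and Epb41 at 6336 CPM. Another of 128 cells had all 10 B lineage markers raised together with globin genes, and Slc4a1 at 935 and Epb41 at 1311. A cluster of 64 cells with neutrophil markers and globin genes had 451 and 894. No class was named megakaryocyte.

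The wider membrane was followed through 30 further red cell membrane and skeleton genes, a list that also holds the glycolytic enzyme Pklr. Of these, 24 were called higher and 5 lower in erythroid-like cells than elsewhere (13.4% and 38.7% of all genes), with a median log2 ratio of 3.62. Rhd and Rhag, which form the Rh complex, were 414-fold (349 to 495) and 391-fold (312 to 496) higher. The lowest ratios belonged to the glucose transporter Slc2a1 at 0.0589, to Add3, the gamma-adducin gene, at 0.207, and to the tropomyosin gene Tpm3 at 0.245. Between the low and middle ranges 19 of 29 were called higher and 2 lower (14.6% and 36.3% of all genes), with Gypc, the glycophorin that protein 4.1R binds, 5.80-fold higher (4.99 to 6.77), and Pklr and the actin-capping gene Capzb at 0.101 and 0.235 times. Piezo1, a stretch-gated channel gene, was at 0.523 times, within 2-fold.

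In the high range 2 of 28 of these genes were called higher and 13 lower than in the middle range (5.63% and 61.5% of all genes), with a median log2 ratio of -0.92 beside -1.39 for all genes. Mpp1, the p55 protein that joins protein 4.1R to glycophorin C, was 4.55-fold higher (4.24 to 4.89), and the tropomyosin gene Tpm1 2.02-fold higher (1.68 to 2.42). Gypc went the other way, to 0.0983 times (0.0669 to 0.140), as did the water channel gene Aqp1 at 0.0817 times and the adhesion gene Icam4 at 0.110 times. The 3 proteins of the 4.1R, p55 and glycophorin C complex thus had transcripts at 5.28, 4.55 and 0.0983 times their middle-range levels per non-globin UMI. With all UMIs as denominator none of the 28 genes was called higher and 26 were called lower (0.108% and 93.5% of all genes). Per cell none was called higher and 27 were called lower (0.0769% and 94.4%). The calls of Mpp1 and Tpm1 as higher were thus lost on both of these scales.

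Genes of the same families used in other tissues were low in erythroid-like cells. Of 26 such paralogues 17 had enough UMIs, 14 were called lower and none higher, where 38.7% of all genes were lower. With a limit of 5% mitochondrial UMIs 9 were called lower. Sptan1, the non-erythroid alpha-spectrin gene, was at 0.0776 times the other classes, Sptbn1, a non-erythroid beta-spectrin gene, at 0.116 times, the villin-like gene Vill at 0.0951 times and the bicarbonate transporter gene Slc4a8 at 0.0759 times, the last from 1 UMI (0.00191 to 0.430). Tmod3 was at 0.287 times. Ank2, Epb41l3 and Tgm2 lay within 2-fold, at 0.535 (from 2 UMIs, 0.0626 to 2.07), 0.898 and 0.694 times. Sptbn4 counts among the 14 with 0 UMIs against 27, where a limit of 3 UMIs allows no ratio. The median log2 ratio was -2.03, and -1.91 without that gene. Between the low and middle ranges 1 of 6 paralogues with enough UMIs was called lower (36.3% of all genes), Slc4a7 at 0.254 times, and the other 5 (Tmod3, Sptbn1, Slc4a2, Tgm2 and Epb41l2) lay between 0.660 and 0.994 times. Between the middle and high ranges 2 of 5 were called lower (61.5% of all genes), Tmod3 at 0.459 and Tgm2 at 0.321 times, from 8 and 6 high-range UMIs, and Sptbn1, Epb41l2 and Slc4a2 were not called.

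The genes differed in which of them followed each other. Erythroid-like cells were ordered by haemoglobin share and divided into 20 bins of 89 or 90 cells, and log2 levels (with 10 CPM added) were correlated across bins. The bins share 1 library and neighbouring bins lie close in depth, so the coefficients describe shape only. The highest Pearson r among the 8 genes were 0.97 for Epb42 with Slc4a1, 0.96 for Slc4a1 with Tmod1, 0.94 for Ank1 with Dmtn, and 0.93 both for Ank1 with Add2 and for Sptb with Tmod1. The lowest were 0.12 for Epb41 with Add2 and 0.14 for Epb41 with Ank1.

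Among 3474 other genes with at least 200 UMIs, those most like each member were found by the same measure. Epb41 was most like Fam46c, Ube2o and Fam220a (r = 0.998 for each). Slc4a1 was most like E2f2 (0.992), Cd24a (0.979) and Fam117a (0.976), and Epb42 most like Ctsb (0.991) and Slc25a37 (0.989), the latter a mitochondrial iron importer. Sptb followed Tspan33 (0.959), Bsg (0.953) and Cd24a (0.942), and Tmod1 followed Ranbp10 (0.970), March8 (0.969) and E2f2 (0.968). Ank1 was most like Trim59 (0.954), Sox6 (0.949) and Kel (0.948), Dmtn most like Pdzk1ip1 (0.963), Kel (0.959) and Trim59 (0.955), and Add2 most like Map4k5 (0.932), Rhd (0.928) and Trim59 (0.918). Trim59 was on the lists of Ank1, Dmtn and Add2.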

How the data were processed

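Per the file headers, Cell Ranger 3.1.0 made the matrix of UMI counts that the authors deposited, in which values are not normalized. Seurat 3, with no role given, and the mm10 build are named in the submitters' processing notes. Counts were read with scanpy 1.11.5. Barcodes under 500 UMIs or 200 genes, or over 10% mitochondrial UMIs, were left out, and Scrublet removed 522 doublets (4.74% of 11007). Cells were clustered (Leiden, resolution 1.0, 30 components, 2000 variable genes without the 8 genes). A cluster was named when at least 3 markers of a type were 2-fold raised and seen in 10% of its cells, unless types tied, another type's genes led it or it was shallow. This naming rule was set after the clusters were seen. The genes, gene lists and haemoglobin ranges were chosen with earlier results of these data known.

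UMIs were summed per class or range over 1 library, so no test between samples exists. Levels carry exact Poisson intervals, shares Clopper-Pearson intervals and ratios exact conditional binomial intervals, all at 95%; log2 ratios had 0.5 UMIs added per side. UMI counts remove PCR copies, and intervals cover counting error only. Named were the 8 genes, the 3 highest and 3 lowest of each other list in each comparison, Tmod3, Sptan1 and Sptbn1, and the 3 genes most like each member over 20 bins; some genes the rule named are not reported here. Other genes were named after their values were seen. The comparison script was tested on simulated data. Alternatives changed the denominator, fold, ranges, filters, resolution, naming, doublet removal and thinning depth.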

Additional observations from a re-analysis of the deposited data

How the results depend on the processing

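All 8 genes stayed called higher in erythroid-like cells than elsewhere under every alternative run, though the 5% mitochondrial limit took the log2 ratio of Epb42 from 8.57 to 6.34. Between the low and middle ranges 131 single-gene values kept their call and 5, of Add2 or Ank1, fell short. The step from the middle to the high range depended on the processing. The number of genes called lower, 2 as reported, was 7 with all UMIs as denominator, 7 per cell, 4 at a fold of 1.5, 0 with every kept cell of at least 20% haemoglobin, 1 with clusters named on all UMIs (chosen after seeing the data), 1 with a limit of 5% mitochondrial UMIs and 1 with doublets kept. In the last 3 Ank1 fell short, at log2 ratios of -0.86, -0.80 and -0.96. The number called higher, 1 as reported, was 0 with all UMIs, 0 per cell, 2 at a fold of 1.5 and 2 with every kept cell, where Epb42 joined at 1.22. With all UMIs and per cell, Epb42 reversed to -1.21 and -1.35 and Slc4a1 to -1.63 and -1.77; globin UMIs enter the first of these denominators. Paralogues called lower in erythroid-like cells were 9 in place of 14 with the 5% mitochondrial limit; the cause was not tested. The share of erythroid-like cells with a UMI of any of the 8 genes, 91.4% of 1660 cells thinned to 1000 UMIs, was 75.4% at 500 UMIs, 97.3% at 2000, 94.4% without thinning and 88.4% with non-globin UMIs thinned to 500, the last chosen after seeing the data.

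With a limit of 100 genes per barcode the high range held 1336 cells in place of 798, and the number of the 8 genes called in each comparison did not change. No paired analysis was possible because the records share 1 library, and for the same reason no replicate could be left out. Dmtn, Add2 and Ank1 over 90% haemoglobin rest on 13, 28 and 33 UMIs.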
